A study of Mus musculus with 20 samples.

Results

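The 9 enzymes that make serine and carry its carbon through folate were followed during neuronal differentiation of mouse embryonic stem cells. The cells were compared with and without knockdown of the purine salvage enzyme hypoxanthine phosphoribosyltransferase (HPRT). The enzymes were taken by gene symbol, Phgdh, Psat1, Psph, Shmt1, Shmt2, Mthfd1, Mthfd2, Mthfd1l and Aldh1l2, and are 9 of the 37561 genes listed in every table. All 9 passed the filter on low values that left 13608 genes for testing, a typical log2 normalised read count of at least 4. The cells were D3 embryonic stem cells of the mouse strain 129s2/SvPas, kept on feeder cells of primary mouse embryo fibroblasts before they were turned into spherical neural masses (SNM), floating neural clusters that go on towards dopaminergic neurons. The control group carried a short hairpin RNA (shRNA) against luciferase, a gene that mouse cells do not have, and the HPRT knockdown group carried an shRNA against HPRT. According to the study's methods the hairpin was directed at the human gene and the vectors were lentiviral, while the sample labels say retrovirus. The methods also state that transduced cells were selected with puromycin, so both groups share the vector and the drug. Whether a line was a clone was not stated. Each group gave 1 library of polyadenylated RNA on each of 10 days of differentiation, namely days 0 to 4 without a gap and then the even-numbered ones up to day 14, which makes 20 libraries. The RNA of all cultures of 1 group at 1 time point went into 1 pool.

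Cells make serine from a glycolytic intermediate through Phgdh, Psat1 and Psph in turn. Serine hydroxymethyltransferases then move a carbon from serine to tetrahydrofolate, Shmt1 mostly in the cytosol and Shmt2 in the mitochondrion. In the mitochondrion Mthfd2 and Mthfd1l turn the carbon into formate, while Aldh1l2 oxidises it to carbon dioxide and yields NADPH. In the cytosol Mthfd1 takes up formate and gives the folate-bound carbons that purine and thymidylate synthesis use. Proliferating cells and embryonic stem cells are known for high use of this route, and it feeds the making of the purine ring, the route left to cells that cannot salvage hypoxanthine and guanine.

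The starts of the genes are shown for 4 of the 5 members that were lower in the knockdown, with and without the promoter motif searched for. Mthfd1l, the fifth, is counted but not printed. The sequences are from RefSeq, build GRCm38.p6, each 300 bases around the start with most of them before it, 5′ to 3′ on the strand of the gene. Capitals mark the CCAAT box, written CCAAT or, on the other strand, ATTGG. The windows are chr11:60811216-60811515 on the minus strand for Shmt1, chr12:76254982-76255281 on the plus strand for Mthfd1, chr6:83317555-83317854 on the minus strand for Mthfd2 and chr10:127522395-127522694 on the minus strand for Shmt2.
Shmt1 promoter: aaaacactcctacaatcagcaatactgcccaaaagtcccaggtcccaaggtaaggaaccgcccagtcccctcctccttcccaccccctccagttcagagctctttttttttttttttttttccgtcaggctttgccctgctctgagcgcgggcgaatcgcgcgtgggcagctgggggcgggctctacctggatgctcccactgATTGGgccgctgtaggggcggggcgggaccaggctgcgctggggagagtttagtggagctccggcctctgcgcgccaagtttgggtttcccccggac
Mthfd1 promoter: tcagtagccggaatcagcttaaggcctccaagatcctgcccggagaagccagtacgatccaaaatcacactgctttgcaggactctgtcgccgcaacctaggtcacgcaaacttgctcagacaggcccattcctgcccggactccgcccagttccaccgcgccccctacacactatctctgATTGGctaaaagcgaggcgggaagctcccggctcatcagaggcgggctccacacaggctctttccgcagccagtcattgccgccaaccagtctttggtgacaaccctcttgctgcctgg
Mthfd2 promoter: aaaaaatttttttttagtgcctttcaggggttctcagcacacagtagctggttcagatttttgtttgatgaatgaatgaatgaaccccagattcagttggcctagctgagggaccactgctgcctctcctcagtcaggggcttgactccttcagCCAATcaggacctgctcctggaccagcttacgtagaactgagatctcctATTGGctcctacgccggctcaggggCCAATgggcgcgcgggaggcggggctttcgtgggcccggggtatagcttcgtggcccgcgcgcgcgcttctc
Shmt2 promoter: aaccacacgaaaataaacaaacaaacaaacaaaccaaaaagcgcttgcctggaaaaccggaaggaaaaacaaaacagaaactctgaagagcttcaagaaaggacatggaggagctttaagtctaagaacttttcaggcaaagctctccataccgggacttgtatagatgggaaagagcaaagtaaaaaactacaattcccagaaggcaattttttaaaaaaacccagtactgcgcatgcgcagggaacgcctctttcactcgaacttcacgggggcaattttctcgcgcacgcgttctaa
The Shmt1 window held 1 box, 47 bases before the start, and the Mthfd1 window held 1 box, 69 bases before it. The Mthfd2 window held 3 boxes, and the windows of Shmt2 and Mthfd1l held 0. The table had 9 promoters for 8 of the 9 enzymes, and no entry for Aldh1l2. At least 1 CCAAT box on either strand stood in 6 of these 9 promoters, those of Mthfd1, Mthfd2, Phgdh, Psat1, Psph and Shmt1, against 37.4% of 32851 promoters of all genes. The amino acid response element TGATGNAA, the sequence that Atf4 dimers are known to bind, stood in 0 of the 9 promoters and in 3.97% of all promoters, and the Myc E-box CACGTG stood in 0 of the 9 and in 7.15% of all. The box stood in 3 of the 5 genes that were lower and in all 3 genes of serine synthesis, which were not called. Whether it goes with the direction of change was not tested. These are matches of letters in 300-base windows.

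The libraries held between 4763124 and 9254676 reads over the 10191 genes whose read counts could be recovered from the deposited log2 values. The counts come in fractions of a read, and for Phgdh, Shmt1 and Mthfd1l the size of that fraction was taken from the other genes. The targeted gene followed the labels: Hprt had between 535 and 1407 reads in the control libraries and between 19.2 and 198 in the knockdown libraries, and its mean log2 ratio of knockdown over control was −4.00 ± 0.89 (SD, 9 days). Day 6 stood apart. The study called its day 6 data discrepant, so this day is left out of every test and given as values. The tests take the 9 other days as the units of observation. These days belong to 1 pair of lines, so a p-value here measures the spread of the ratio from day to day and not the spread between independently made lines.

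Of the 9 enzymes, 5 were lower in the HPRT knockdown over the 9 days and 1 was higher, while the 3 enzymes of serine synthesis did not pass the test. The 5 that fell were Shmt1, Mthfd2, Mthfd1l, Mthfd1 and Shmt2, with mean log2 ratios from −1.20 to −0.40. The 1 that rose was Aldh1l2, by 1.05 on the log2 scale. These calls are from limma on the 9 per-day log2 ratios, with Benjamini-Hochberg adjustment over all 13608 genes and a threshold of 0.05. The same 6 passed the exact two-sided sign-flip permutation test on the 9 days, adjusted in the same way, with adjusted p = 0.0134 for Shmt1, Shmt2, Mthfd1 and Aldh1l2 and 0.0209 for Mthfd2 and Mthfd1l. With day 6 kept, this exact test called 5, without Mthfd1. In this series 52.5% of all tested genes were called by limma, 26.2% as higher and 26.3% as lower, and 49.0% by the exact test. The share of enzymes called therefore stands close to the background, and the share called lower, 5 of 9, above it.

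**Figure D1:**
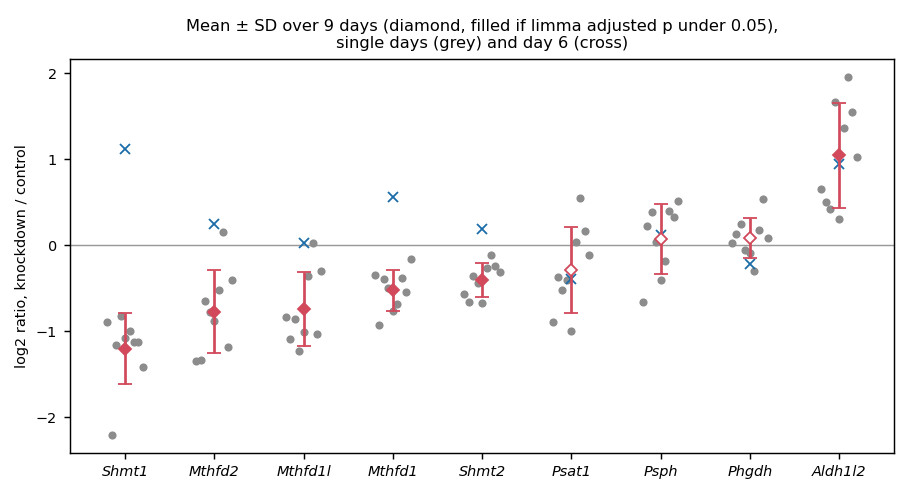
Log2 ratio of knockdown over control for each of the 9 enzymes, ordered by mean; diamonds are the mean over the 9 tested days, bars 1 SD, grey points single days and crosses day 6. Shmt1 lies lowest at −1.20 and Aldh1l2 highest at 1.05, and the crosses of the 5 enzymes that fell lie above all their grey points.

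Shmt1, the cytosolic serine hydroxymethyltransferase, showed the largest change of the 9. The control libraries held between 252 and 1365 Shmt1 reads, median 636, and the knockdown libraries between 72.5 and 994, median 311. Without day 6 every knockdown library lay below the control library of its day. The log2 ratio took the values −0.89, −2.20, −1.16, −0.82 and −1.08 over days 0 to 4, in that order, and −0.995, −1.12, −1.13 and −1.42 over days 8 to 14. On average Shmt1 was 2.30-fold lower, with a mean log2 ratio of −1.20 ± 0.41 (SD, 9 days, 95% interval −1.50 to −0.91, limma adjusted p = 0.000123). On day 6 the order turned, with 994 reads in the knockdown and 480 in the control and a ratio of 1.12. The low value of day 1 did not carry the mean, since leaving out any single day kept the call.

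Shmt2, the mitochondrial enzyme for the same reaction, fell less. Its ratio lay below 0 on all 9 days, between −0.67 on day 4 and −0.11 on day 10, and its mean was −0.40 ± 0.20 (SD, 9 days, 95% interval −0.57 to −0.23, limma adjusted p = 0.00176). The knockdown held on average 75.7% of the control. On 9 of 9 days the Shmt1 ratio was below the Shmt2 ratio, with a mean difference of −0.80 ± 0.40 (SD) on the log2 scale. This difference between the paralogs is given as a description.

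Mthfd1, the cytosolic trifunctional enzyme that makes 10-formyltetrahydrofolate, was lower on all 9 days. The control libraries held between 879 and 3686 Mthfd1 reads, median 1637, and the knockdown libraries between 604 and 1954, median 1140. These values include day 6, the day of the 1954 reads. Reads differ with the depth of the library, so the ratio sets the comparison: it ran from −0.92 on day 1 to −0.16 on day 14. The mean was −0.52 ± 0.24 (SD, 9 days, 95% interval −0.71 to −0.33, limma adjusted p = 0.000822), 1.44-fold lower. Here too day 6 went the other way, with a ratio of 0.56. Ratios below 0 on all 9 days were found for 3 of the 9 enzymes, Shmt1, Shmt2 and Mthfd1, and for 15.2% of all tested genes.

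The mitochondrial pair Mthfd2 and Mthfd1l, which oxidise the folate-bound carbon and release it as formate, were lower on 8 of 9 days each. The Mthfd2 ratio was lowest on day 0 with −1.34 and stood at −0.40 on day 14, and day 10, with 0.15, was its only tested day above 0. Its mean was −0.77 ± 0.49 (SD, 9 days, limma adjusted p = 0.00228), 1.71-fold lower. Mthfd1l was 1.67-fold lower, with a mean of −0.74 ± 0.43 (SD, 9 days, limma adjusted p = 0.00155). It lay between −1.23 and −0.84 on days 0 to 4 and at −0.36, 0.02, −1.03 and −0.29 on days 8, 10, 12 and 14. The mean ratio of Mthfd1l was −1.01 ± 0.16 (SD, n = 5) over days 0 to 4 and −0.41 ± 0.44 (SD, n = 4) over days 8 to 14. Both enzymes had ratios below −1 in the first days and again on day 12, and both were near the control on day 10. On day 12 the knockdown library held 170 Mthfd2 reads, the fewest of the 20 libraries, and the control library 633. Normalised for the depth of the libraries, these were 209 and 488.

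Aldh1l2, the mitochondrial 10-formyltetrahydrofolate dehydrogenase, was the only one of the 9 that was higher in the knockdown. The control libraries held between 211 and 995 Aldh1l2 reads, median 373, and the knockdown libraries between 253 and 1560, median 801. The ratio was above 0 on all 9 days, a pattern seen for 14.1% of all tested genes. It took the values 0.65, 0.50, 0.42, 1.66 and 0.30 over days 0 to 4, and 1.37, 1.96, 1.55 and 1.03 over days 8 to 14. Day 3 stood out among the early days, and the 4 late days were all above 1. The mean was 1.05 ± 0.61 (SD, 9 days, 95% interval 0.63 to 1.47, limma adjusted p = 0.00136), 2.07-fold higher. Aldh1l2 was also higher on day 6, with 0.94. Against Mthfd2, also a mitochondrial folate enzyme, the Aldh1l2 ratio was higher by 1.82 ± 0.55 (SD) on the log2 scale. The Aldh1l2 ratio was above the Mthfd2 ratio on 9 of 9 days.

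Averaged over the 9 days, the 3 enzymes of serine synthesis stayed closer to the control than the enzymes called. Phgdh, the first enzyme of the route, had between 345 and 893 reads in the control and between 288 and 903 in the knockdown libraries. Its ratio lay between −0.29 and 0.53 and averaged 0.086 ± 0.23 (SD, 9 days, 95% interval −0.10 to 0.27, limma adjusted p = 0.41). Psph, the phosphatase of the last step, averaged 0.071 ± 0.41 (SD, 9 days, 95% interval −0.22 to 0.36, limma adjusted p = 0.667), with −0.66 on day 0 and 0.51 on day 14. Psat1, the aminotransferase of the middle step, had values of −0.90, −0.37, −0.52, −0.41 and −0.998 on days 0 to 4 and of 0.04, 0.55, 0.17 and −0.12 on days 8 to 14. It averaged −0.64 ± 0.29 (SD, n = 5) over days 0 to 4 and 0.16 ± 0.28 (SD, n = 4) over days 8 to 14. Shmt2 and Mthfd1, both called, averaged −0.54 and −0.59 over days 0 to 4. The Psat1 mean of −0.28 ± 0.50 (SD, 9 days, 95% interval −0.63 to 0.066, limma adjusted p = 0.153) did not pass the test. Without day 10 it was −0.39 with a limma adjusted p of 0.046, so this 1 day decides whether limma calls Psat1. The exact test did not call Psat1 without day 10.

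**Figure D2:**
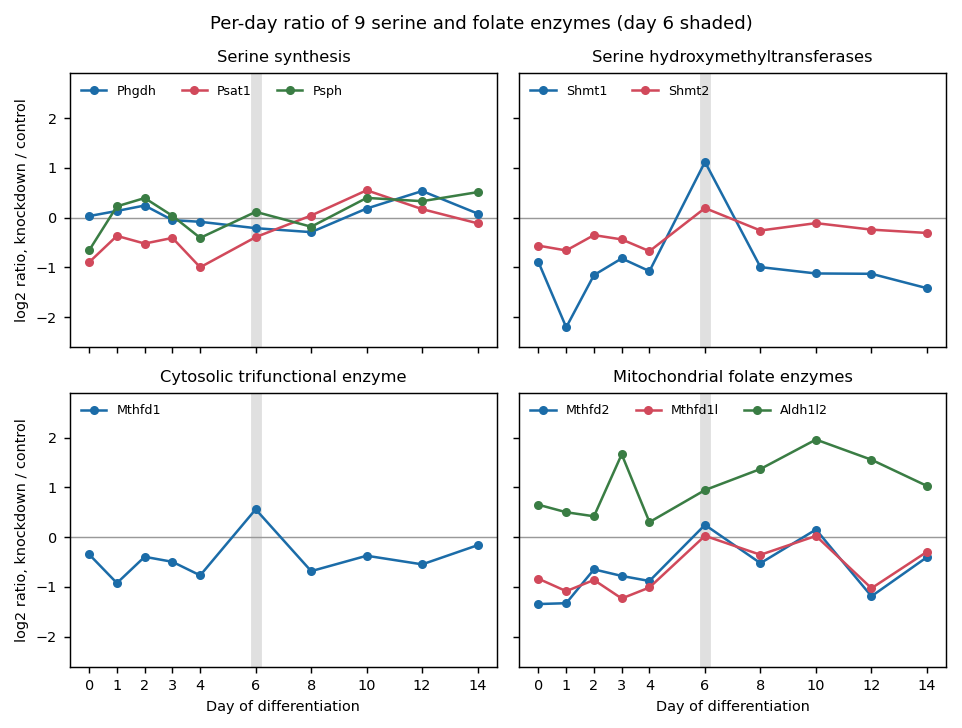
Log2 ratio of knockdown over control by day of differentiation, 1 library per group and day, in panels by role; the grey band marks day 6, which is not in the tests. Shmt1 and Mthfd1 stay below 0 but for day 6, Aldh1l2 stays above 0 on every day, and Psat1 lies below 0 up to day 6 and between −0.12 and 0.55 from day 8 on.

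Day 6 differed from its neighbours for most of the 9. On that day 7 of the 9 enzymes had a ratio above 0 and 2 below, Psat1 with −0.39 and Phgdh with −0.21. Of the 5 enzymes that fell over the other days, Shmt1 had a ratio of 1.12 on day 6, Mthfd1 of 0.56, Mthfd2 of 0.25, Shmt2 of 0.19 and Mthfd1l of 0.03. The median ratio of the 9 was 0.19 on day 6, and on the 2 neighbouring days it was −0.77 on day 4 and −0.29 on day 8. The median ratio of all tested genes lay between −0.024 and 0.011 over the 10 days. With 1 library per group, the day and the library cannot be told apart.

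The course of each enzyme was then followed within each line, by joining the tables of consecutive days. In the control line 8 of the 9 enzymes fell with time. The joined values use the control table of days 3 and 4, which does not close a loop with the tables around it (residual −0.087 on the log2 scale for Aldh1l2). The slopes of the 8 ran from −0.077 per day for Psph to −0.13 per day for Mthfd2 on the log2 scale, with limma adjusted p between 0.000554 and 0.00971, against 23.9% of all tested genes that fell and 19.7% that rose. On day 14 the log2 value relative to day 0 of the same line was −1.86 for Mthfd1l, −1.67 for Mthfd2, −1.53 for Shmt1, −1.30 for Psat1, −1.19 for Shmt2, −1.15 for Mthfd1 and −1.13 for Phgdh and for Psph. Most of this came after day 4: Shmt1 and Mthfd1 stood above their day 0 level on days 1 to 4, by 0.40 to 0.58. Aldh1l2 first dipped to −0.85 on day 4 and reached 0.86 on day 14, with a slope of 0.069 per day (limma adjusted p = 0.0664). This slope passed with the step from day 3 to day 4 taken through the knockdown line (0.079 per day, adjusted p = 0.0362), with recovered counts (0.0262), with the stricter filter (0.049) and without day 0 (0.0105). The adjusted p of Shmt1 in the control was 0.0557 without day 14. With slopes on log2(day + 1) 6 of the 9 were called, without Shmt1 (adjusted p = 0.109) and Mthfd1 (0.0807).

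In the knockdown line 5 of the 9 slopes passed the test, where 5.53% of all tested genes fell and 7.6% rose. Phgdh, Shmt2, Mthfd1 and Mthfd1l fell, with slopes of −0.082, −0.059, −0.084 and −0.078 per day and limma adjusted p between 0.0236 and 0.0405. Aldh1l2 rose by 0.14 per day (limma adjusted p = 0.0371). These calls depend on single days: 0 of the 9 passed without day 2 or without day 14, 1 without day 10 or without day 12, and 3 without day 8. Shmt1 had the lowest point of any enzyme in this line, −2.07 on day 14 against its own day 0, yet its slope of −0.11 per day did not pass (limma adjusted p = 0.0981). The slopes of the 2 lines do not tell by themselves whether the lines differ in their course. Tested directly, the slope of the ratio on day passed for 0 of the 9 by limma, with 1 at an unadjusted p under 0.05, against 14.0% of all tested genes. The lowest adjusted p was 0.0778, for Psat1, whose ratio rose by 0.071 per day (95% interval 0.017 to 0.13).

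**Figure D3:**
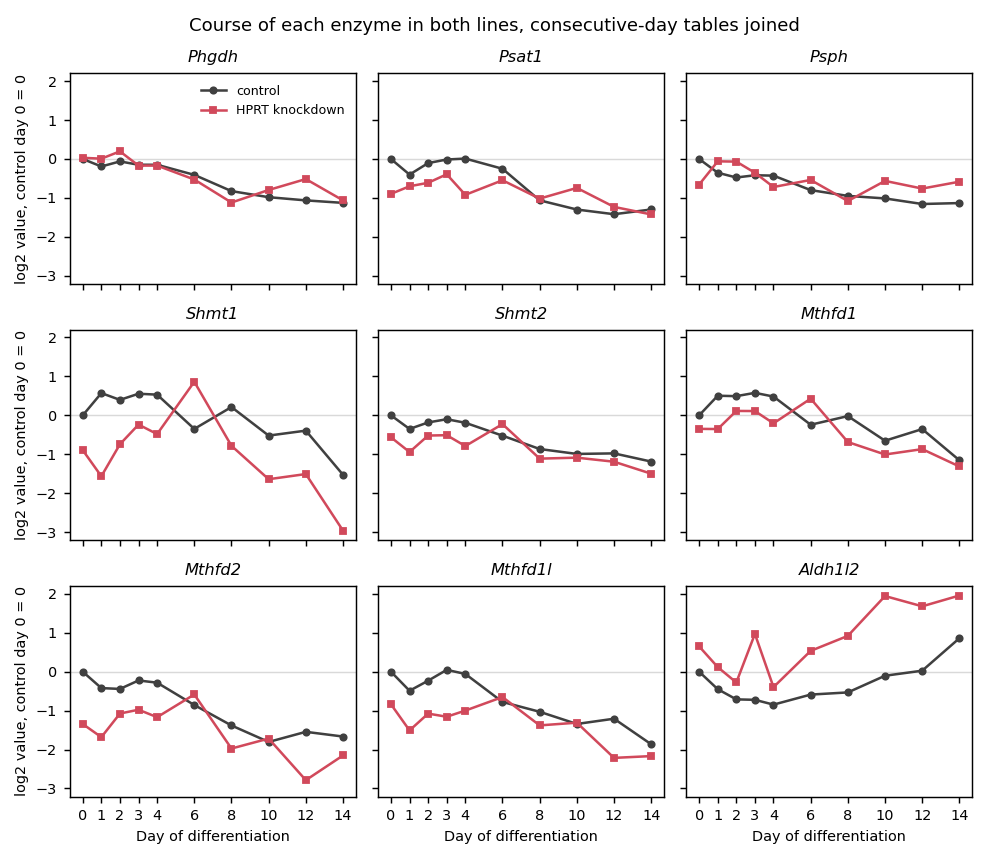
Course of the 9 enzymes in the control line (dark circles) and the HPRT knockdown line (red squares), as log2 values relative to the control on day 0, 1 library per point, with the knockdown placed by its day 0 ratio. Mthfd2 and Mthfd1l end on day 14 below their day 6 level in both lines, and the Aldh1l2 curves climb to 0.86 in the control and, from the knockdown's own day 0, by 1.31 on day 14.

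Levels can be set side by side only per length of transcript. Over the control libraries the median was 486 normalised reads per kilobase of exon for Mthfd1, 328 for Mthfd2, 233 for Mthfd1l, 211 for Phgdh, 169 for Shmt1, 164 for Psph and 42.5 for Aldh1l2. Over the knockdown libraries the order began with Mthfd1 at 384 and Phgdh at 203 and ended with Aldh1l2 at 101 and Shmt1 at 88.2. Aldh1l2 was the least abundant of these 7 in the control, while in the knockdown Shmt1 was. For Phgdh, Shmt1 and Mthfd1l the fraction of a read was taken from the other genes, so their places in this order depend on it. The ranges of neighbours overlapped: Phgdh ran from 124 to 256 per kilobase over the control libraries and Shmt1 from 56.4 to 232. Read counts of Psat1 and Shmt2 could not be recovered, so they have ratios but no level here. On the mouse build NCBIM37 Shmt1 lies at chr11:60601606-60625220 and Aldh1l2 at chr10:82950195-82996885, both on the minus strand, and Mthfd1 at chr12:77356219-77420807 on the plus strand. Phgdh values carry a doubt of their own. Of its 2486 exon bases 60.0% have a copy of at least 50 bases and 98% identity elsewhere in the genome, at 11 places, so reads may be shared with those copies. For Shmt1 this share was 2.91%, and for the 7 others it was 0.

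The enzymes did not all move together. Over the 28 tables, that is the 10 per-day ratios and the 18 steps between consecutive days, the Pearson r of the 36 pairs had a median of 0.29. Shmt1 and Mthfd1, both cytosolic, had r = 0.89, Mthfd2 and Mthfd1l, both mitochondrial, had 0.87, and Shmt2 had 0.79 with Mthfd2. Without the 5 tables that hold a day 6 library these were 0.85, 0.88 and 0.71, and the median of the 36 pairs was 0.19. Across the compartments, Shmt2 had 0.73 with Shmt1 and 0.72 with Mthfd1, or 0.67 and 0.60 without day 6. The 28 pairs without Aldh1l2 had a median of 0.47, and the 8 pairs with it lay between −0.27 and 0.31, or between −0.48 and 0.29 without day 6. These values share libraries, since a library enters up to 3 tables, and stand as a description. Among 8247 other genes with a typical log2 normalised count of at least 8, those most like Shmt2 were the mitochondrial protease Lonp1 (r = 0.93) and the tRNA synthetases Lars (0.92) and Vars (0.92). Those most like Mthfd1 were the transcriptional coactivator Pprc1 (0.95), the splicing factor Eftud2 (0.95) and the purine synthesis enzyme Pfas (0.94), and Shmt1 ranked 39. Phgdh was less closely followed by any gene, the first being the RNA helicase Skiv2l (0.81), the histone methyltransferase Ehmt2 (0.80) and the kinase Mark3 (0.79). Without day 6 the order changed: Skiv2l, Ehmt2 and Mark3 ranked 3, 6 and 8 for Phgdh, Lonp1, Lars and Vars 8, 1 and 10 for Shmt2, and Pprc1, Eftud2 and Pfas 1, 3 and 5 for Mthfd1.

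Around the 9 enzymes, genes that use or refill the folate pool were counted in the same limma fit. This fit called 26.2% of all tested genes as higher and 26.3% as lower. Of the other folate interconversion enzymes 3 of 10 tested were higher and 5 lower, with a median ratio of −0.37 against 0.01 over all tested genes. The cytosolic relative of Aldh1l2, Aldh1l1, was higher (mean log2 ratio 1.20 ± 0.92, SD, 9 days), as was Ggh, which trims folate polyglutamates (0.68). Thymidylate synthase Tyms (−0.98) and the purine enzyme Gart (−0.93), both users of folate carbon, were lower. Aldh1l1 and Aldh1l2 did not follow the same days: Aldh1l1 was highest on day 2 with 2.68 and stood at −0.18 on day 10, when Aldh1l2 was at 1.96. Of the folate transport genes 1 of 4 was lower, the mitochondrial carrier Slc25a32 (−0.28), and 0 were higher. Of the enzymes of glycine cleavage and choline-derived carbon 2 of 6 were higher, among them sarcosine dehydrogenase Sardh (1.52), and 1 was lower, Pipox (−0.61). The methionine cycle had 2 of 7 higher and 2 lower, with adenosylhomocysteinase Ahcy at −0.95 and its relative Ahcyl2 at 0.64. The shares called, 50.0% for glycine cleavage and choline-derived carbon and 57.1% for the methionine cycle, stood close to the 52.5% of all tested genes.

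Among the genes of serine use and breakdown 5 of 11 were higher and 3 lower, against 26.2% and 26.3% of all tested genes. Both enzymes of transsulfuration, which draws on serine, were called and in opposite directions, Cbs at 0.94 and Cth at −1.31. Serine and glycine transport had 3 of 9 higher and 3 lower. The glycine transporter Slc6a9 (1.56) and the mitochondrial transporter Sfxn3 (0.73) were higher, and the neutral amino acid transporter Slc1a5 (−1.55) was lower. Phgdh, Psat1, Psph, Shmt2 and Mthfd2 are known targets of the amino acid response factor Atf4. Of Atf4 and its other targets, 3 of 27 were higher and 13 lower, with a median of −0.26. In all 59.3% of this list was called, against 52.5% of all tested genes. The translation repressor Eif4ebp1 (−0.91), asparagine synthetase Asns (−0.76), Chac1 (−0.69) and the glycyl-tRNA synthetase Gars (−0.63) were the largest among those called, and Atf4 itself, named after its value was seen, was lower (−0.44, limma adjusted p = 0.00863). In the Myc family Mycn (−2.46) and Mycl1 (−0.86) were lower and Myc (1.04) was higher. De novo purine synthesis, which takes up formyl carbons, had 7 of 8 lower and 0 higher. Gart and Atic are on this list and on that of folate interconversion, and count as lower in both. The largest were Prps1 at −1.10, Adsl at −1.01 and Ppat at −0.98.

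**Figure D4:**
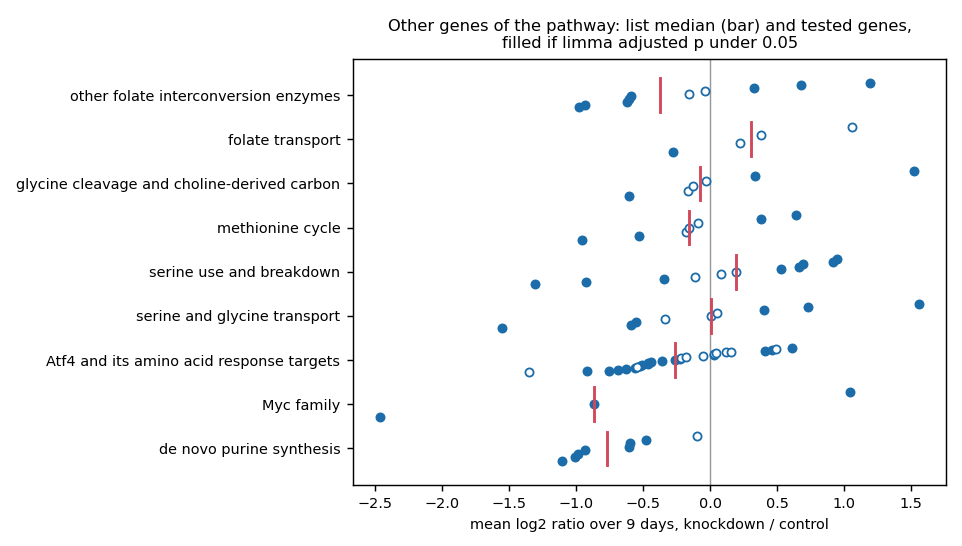
Mean log2 ratio of knockdown over control over 9 days for each tested gene of the 9 surrounding lists; filled points passed the limma threshold, and the bar is the list median. De novo purine synthesis lies wholly below 0, with a median of −0.77, while the lists of serine use and of serine and glycine transport spread to both sides.

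Cell state markers were taken in 7 lists. Those of proliferation, pluripotency, neurons and astrocytes had a larger share of genes called than the 52.5% of all tested genes. The lists of oligodendrocytes, of feeder fibroblasts and mesenchyme, and of endoderm had a smaller one. Of the proliferation genes 13 of 14 were lower and 0 higher, with a median ratio of −0.98, and their median by day was below 0 on all 9 tested days and 0.58 on day 6. Summed over the 9 of them with recovered counts, normalised reads ran from 7952 to 30248 in the control libraries and from 3275 to 25861 in the knockdown. This range and the ranges of summed reads below take all 10 days, day 6 included. Of the pluripotency genes 9 of 9 were lower (median −2.64, summed reads of 4 genes 1932 to 6844 in the control and 128 to 6880 in the knockdown). Of the neuron markers 6 of 8 were lower and 0 higher (median −1.55, 3 genes, 4012 to 9797 and 863 to 5989). Oligodendrocyte markers had 5 of 10 higher and 0 lower (median 2.22, 5 genes, 2475 to 7208 and 2897 to 42874), with Olig2 at 3.02. Astrocyte and radial glia markers had 7 of 11 higher and 2 lower (median 0.67, 6 genes, 7119 to 13286 and 6955 to 22523). Markers of feeder fibroblasts and mesenchyme, which are not particular to the feeder cells, had 0 of 10 higher and 2 lower (median 0.09, 7 genes, 6688 to 28016 and 7164 to 14128). Endoderm markers had 1 of 6 higher and 1 lower (median −0.38, 4 genes, 708 to 2489 and 522 to 2711). No marker that was found had 0 reads in all libraries, while Rbfox3 of the neurons and Afp, Apoa1, Cer1 and Ttr of the endoderm were below the filter. The part of these cell states in the ratios of the 9 enzymes was not tested. In such bulk libraries fewer cells of a type and less RNA per cell cannot be told apart.

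**Figure D5:**
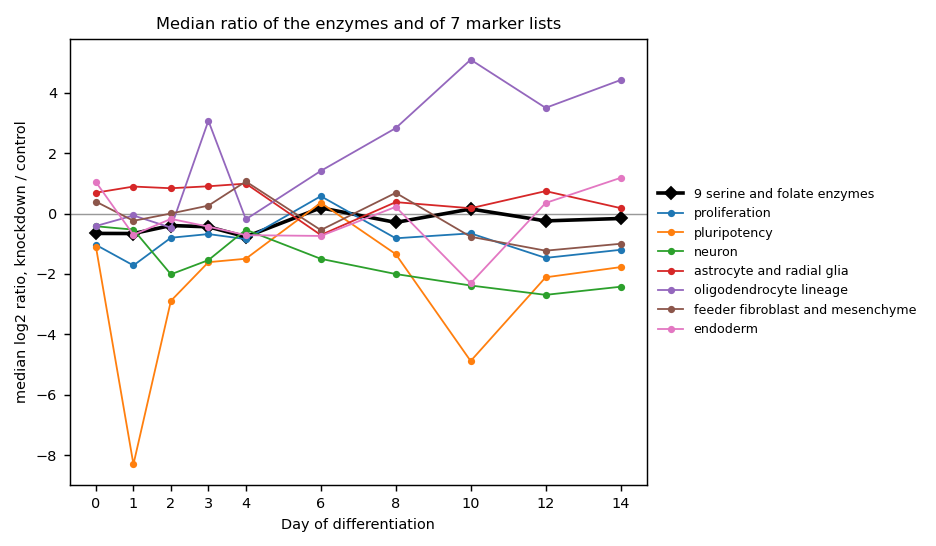
Median log2 ratio of knockdown over control by day for the 9 enzymes (black diamonds) and for 7 marker lists (coloured circles), 1 library per group and day. On day 6 the medians of the enzymes (0.19) and of the proliferation (0.58), pluripotency (0.36) and oligodendrocyte markers (1.41) are above 0. The other lists are below 0 on that day. The oligodendrocyte markers reach 5.10 on day 10.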

How the data were processed

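RNA of 10 control and 10 HPRT knockdown libraries was compared, 1 library per group on each of 10 days. According to the submitters' processing notes and the study's methods, TruSeq libraries were read on an Illumina HiSeq, reads were handled with CASAVA 1.8.2 and placed on mm9, and counts were normalised with DESeq. The authors deposited 28 tables of 2 libraries each, in log2 centred on the mean of the 2 libraries, so that a deposited table holds a log2 ratio but no level. Of these, 10 pair both groups on a day and 9 per group pair consecutive days. Each table was normalised separately.

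Per-day log2 ratios of 9 days were tested against 0 with limma 3.58.1 in R 4.3.3, and slopes on day within each line on values joined over consecutive tables, with Benjamini-Hochberg adjustment over the 13608 genes with a typical log2 normalised count of at least 4, inferred from the rounding of the values. An exact sign-flip test stood beside it (512 flips, smallest p 0.00391). Read counts, in parts of 1/49 read, were rebuilt for 10191 genes that closed over 27 tables within 3e-06, 82.2% of 12400. The control table of days 3 and 4 was left out of that step. The scripts were tested on simulated data.

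The day is the block of the main test, since the study compared groups within days. The deviations of same-day libraries from their group means had r between 0.131 and 0.412 on 8 of the 9 days and −0.0321 on day 0.

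The 9 enzymes, the lists of 9 pathways and 7 cell states, and the promoter motifs were chosen with earlier results of these data known. All 9 enzymes and Hprt are named, and of each list at most the 4 called genes with the largest mean ratio. For Phgdh, Shmt2 and Mthfd1 the 3 genes with the highest Pearson r are named. The neuron marker Map2 stands in the tables under another symbol and was not matched. Copies of exons were sought with BLAST 2.17.0.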

Additional observations from a re-analysis of the deposited data

Results flagged for a closer look

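The ratios of each of the 9 enzymes were checked for a single day that stood apart, once over all 10 days and once over the 9 tested days, 18 checks in all, of which about 1 in 20 would be flagged by chance. Over the 10 days, Shmt1 on day 6 (log2 ratio 1.12) and Mthfd1 on day 6 (0.56) stood above the other days by more than Dixon's critical share of the range. Over the 9 tested days, Shmt1 on day 1 (−2.20) stood below the others. Without day 1, Shmt1 kept its call.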

How the results depend on the processing

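The count of enzymes called between the groups was 6 in the main test. Without the pairing by day (no replicate block) it was 4, since the mean ratios of Shmt2 (−0.37, limma adjusted p = 0.111) and Mthfd1 (−0.49, adjusted p = 0.118) no longer passed, and no other enzyme's call changed. Leaving out single days kept the other calls but for Psat1, whose mean then ran from −0.39 to −0.19. No mean ratio changed sign under any alternative run, and Shmt1 stayed between −1.25 and −0.97. The count of slopes called in the knockdown line was the least stable: 5 in the main test, 3 with no filter on level, 2 with day 6 kept, 0 with slopes on log2(day + 1), and 0 to 6 when single days were left out. In the control line the count was 8 in the main test, 9 with recovered counts, with the stricter filter or with the step from day 3 to day 4 taken through the other line, and 6 with log2(day + 1). The exact test called 6, and 5 with day 6 kept. The cause was not tested. Over all tested genes this slope count was 1786 in the main test, 171 without day 14 and 127 with log2(day + 1). The slope of the ratio was called for 1911 genes, for 1066 with day 6 kept and for 605 to 1657 when single days were left out, and the control slope for 5933 genes and for 3929 with log2(day + 1). Leaving day 6 out of the correlations between enzymes was chosen after seeing the data. No p here covers the spread between independent lines, and 1 library per group and day limits every single-day value.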
